A study of Mus musculus with 6 samples.

Results

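The genes described here are 31 genes of glucose metabolism and of the response to low oxygen, taken by name from 47643 annotated genes. They comprise 4 transporters of glucose and lactate, 17 enzymes of glycolysis and lactate production, 3 genes that govern the entry of pyruvate into mitochondria, and 7 regulators or targets of the hypoxia response. All 31 were among the 13235 genes with enough counts to be tested. Their levels were compared in regulatory T cells, taken by flow sorting of CD4+ FOXP3-GFP+ cells out of bone marrow from 3 Vk*MYC-injected mice (the myeloma group) and 3 control mice. Vk*MYC is a transplantable mouse model of multiple myeloma, a cancer of plasma cells in the marrow. Both groups were sorted on the same green fluorescent reporter of FOXP3, the transcription factor that defines regulatory T cells. The sources used here do not give strain, age, the time after injection or what the control mice received. Libraries are numbered 3, 4 and 5 in the myeloma group and 1, 3 and 5 in the control group.

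Glycolysis splits glucose into pyruvate in a chain of enzymatic steps and yields ATP without oxygen. Lactate dehydrogenase can then turn pyruvate into lactate, which leaves the cell through monocarboxylate transporters, or pyruvate dehydrogenase can pass it to mitochondrial respiration. Most of these genes are known targets of the transcription factor HIF1A, which prolyl hydroxylases mark for destruction when oxygen is present, and several are also targets of MYC. In T cells glycolysis rises on activation, while regulatory T cells are known to depend more on mitochondrial respiration. Bone marrow is known as a tissue of low oxygen tension.

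Library totals ran from 10240620 to 13314631 expected counts. The 7 markers of regulatory T cells summed to 4513 to 4728 CPM (counts per library total, scaled by TMM factors) in the myeloma libraries and 4156 to 5520 in the controls, and none of the 7 was called by edgeR, while 2 had an unadjusted p under 0.05 and DESeq2 called 1. Foxp3 itself lay between 990.7 and 1247 CPM in all 6 libraries. RNA of other marrow cells was present: 7 erythroid markers summed to 3846 to 4769 CPM in the myeloma libraries and 6712 to 14730 in the controls, and no marker of any list was at 0 in all libraries. Plasma cell markers were the other way round, at 230.0 to 476.2 against 106.7 to 169.5 CPM, with Prdm1 and Xbp1 making up most of the control sums.

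Among the 31 genes, 5 rose in the myeloma group and 1 fell, at an adjusted p under 0.05 in edgeR's quasi-likelihood test. The 5 were the lactate exporter Slc16a3, the enzymes Pfkp, Pgam1 and Ldha, and the cytokine gene Mif. The gene that fell was Pdk1, which codes for a kinase that shuts off pyruvate dehydrogenase. The 6 called genes are 19.4% of the 31, against 11.0% of all genes tested, of which 6.33% were called higher and 4.69% lower. In bulk RNA a lower level in each cell and fewer cells that express the gene cannot be told apart.

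The median log2 fold change of the 31 genes, myeloma minus control, was 0.22, against 0.02 over all genes tested. Single values ran from -0.41 (Pdk1) to 1.16 (Slc16a3), and 20 lay above 0 and 11 below, against 52.0% above 0 over all genes tested. An unadjusted p under 0.05 was found for 13 of the 31, and for 3698 of the 13235 genes tested. For 13 of the 31 the groups did not overlap, with 11 higher and 2 lower in the myeloma group, against 33.3% of all genes tested. Within a group, the coefficient of variation of CPM had a median over the 31 genes of 10.8% in the myeloma and 10.5% in the control libraries, from 0.314% (Hk1, control) to 34.5% (Egln3, myeloma). The level was lowest in control replicate 3 for 12 of the 31 genes, and for 14.4% of all genes tested.

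The number of calls changed when 1 library was left out, among the 31 and over all genes. Without control replicate 3 none of the 31 was called by edgeR, the only tool run on those 5 libraries, while 8 had an unadjusted p under 0.05. Of all 13683 genes tested in that fit 331 were called higher and 123 lower (3.32%, against 11.0% with all 6 libraries). With myeloma replicate 3 or 4 left out 1 was called, in each case higher, and with control replicate 5 left out 2 were, both higher. The shares called over all genes in these 3 fits were 4.81%, 4.18% and 5.17%. Without myeloma replicate 5 the calls were 3 higher and 2 lower (10.2% of all genes were called), and without control replicate 1 they were 4 and 1 (8.53% of all genes).

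The balance of calls differed between settings. By library size alone 3 of the 31 were called higher and 2 lower, and over all genes the split was 633 higher and 1004 lower, in place of 838 and 621. On log2(TPM + 1), a scale per transcript length tested with limma, so that unit, scaling and test all differ, 0 of the 31 were called higher and 4 lower, and 1 and 7 had an unadjusted p under 0.05. On that scale the median of all genes shifted to -0.20 (all-gene split 275 higher, 1018 lower) and that of the 31 to -0.05, so the 31 stayed 0.16 above all genes, against 0.20 on the CPM scale. All 6 called genes kept their direction on the TPM scale, and Pdk1 alone of them kept its call.

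**Figure D1:**
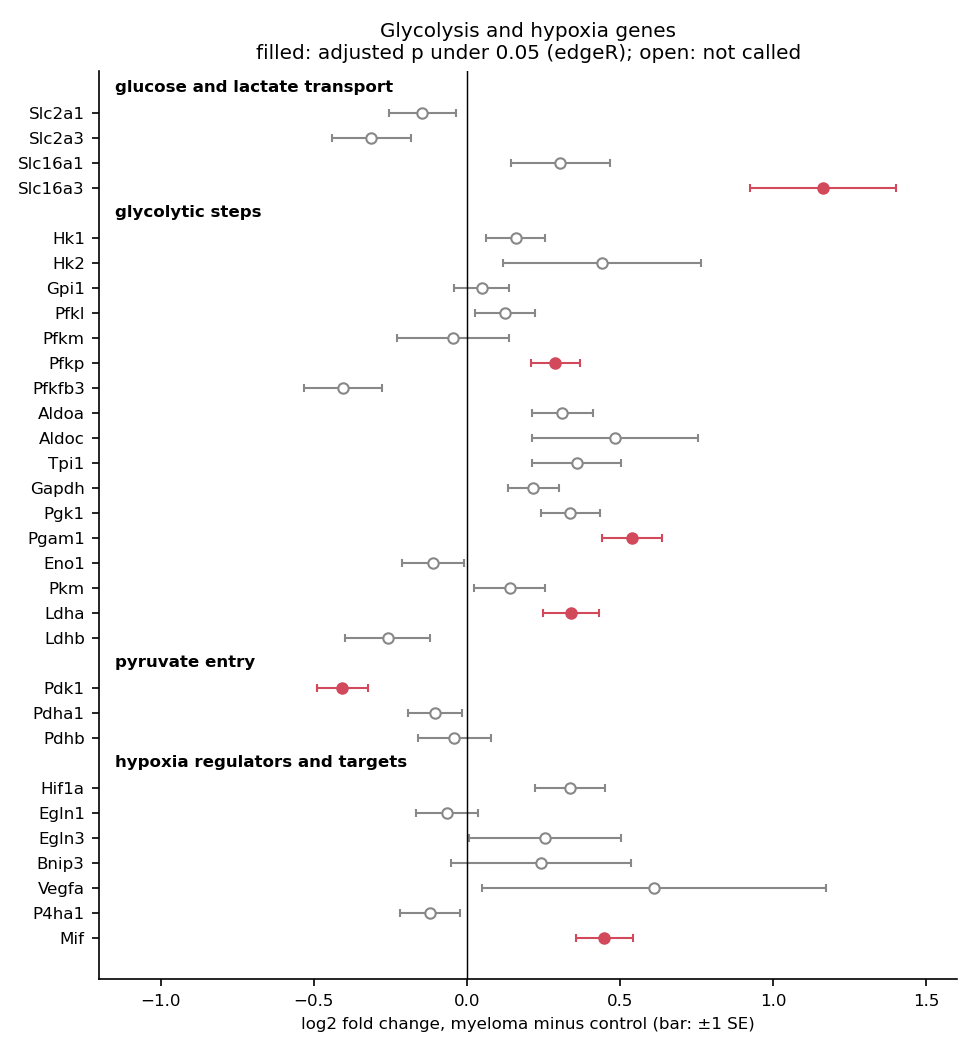
Log2 fold change, myeloma minus control, of the 31 genes ordered by role (points; bars are ± 1 SE; filled red points have an adjusted p under 0.05 and open points do not). Slc16a3 lies farthest to the right at 1.16 and Pdk1 farthest to the left at -0.41.

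Of the 4 transporters, 1 passed the test, as a rise (25.0%, against 11.0% of all genes tested). Their median log2 fold change was 0.08, against 0.02 over all genes tested. Slc16a3 (ENSMUSG00000025161.16, chr11:120948480-120960868 on GRCm38), which codes for the lactate exporter MCT4, stood at 33.7, 23.9 and 43.2 CPM in myeloma replicates 3, 4 and 5 and at 18.9, 11.9 and 14.3 CPM in control replicates 1, 3 and 5. Its lowest myeloma library lay above its highest control library. The means were 33.6 ± 9.65 (SD, n = 3) and 15.0 ± 3.57 CPM (SD, n = 3), a 2.24-fold rise (log2 1.16, SE 0.24, adjusted p = 0.018). Leaving out myeloma replicate 3, control replicate 3 or control replicate 5 gave adjusted p of 0.0576, 0.0758 and 0.0686. It was 0.103 with an effective-length offset.

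Macrophage markers were also high in the library where Slc16a3 was highest: 7 of them summed to 59.1, 139.7 and 435.8 CPM in the myeloma libraries and 104.6, 42.1 and 77.5 CPM in the controls, and 1 of the 7 was called higher. Their part in the Slc16a3 result was not tested.

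The second lactate transporter, Slc16a1 (MCT1), ran from 22.2 to 29.6 CPM in the myeloma libraries and from 17.3 to 23.5 in the controls (log2 0.30, SE 0.16, adjusted p = 0.261). The glucose importers leaned the other way. Slc2a3 (GLUT3) stood at 144.4, 178.9 and 171.3 CPM in the myeloma libraries and at 171.4, 206.6 and 236.1 CPM in the controls (log2 -0.31, SE 0.13, adjusted p = 0.153). For Slc2a1 (GLUT1) the values were 42.7, 42.0 and 39.1 CPM against 40.3, 46.0 and 50.5 (log2 -0.15, SE 0.11, adjusted p = 0.426). Both importers overlapped between groups, so no change in glucose import transcripts passed the test. The Slc2a3 difference was called in 2 of 19 alternatives, with no filter on low counts (adjusted p = 0.0229) and on the TPM scale (0.0455). Slc2a1 changed sign with the effective-length offset (log2 0.08), and its mean effective length was 2230 bases in the myeloma libraries and 2585 in the controls.

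**Figure D2:**
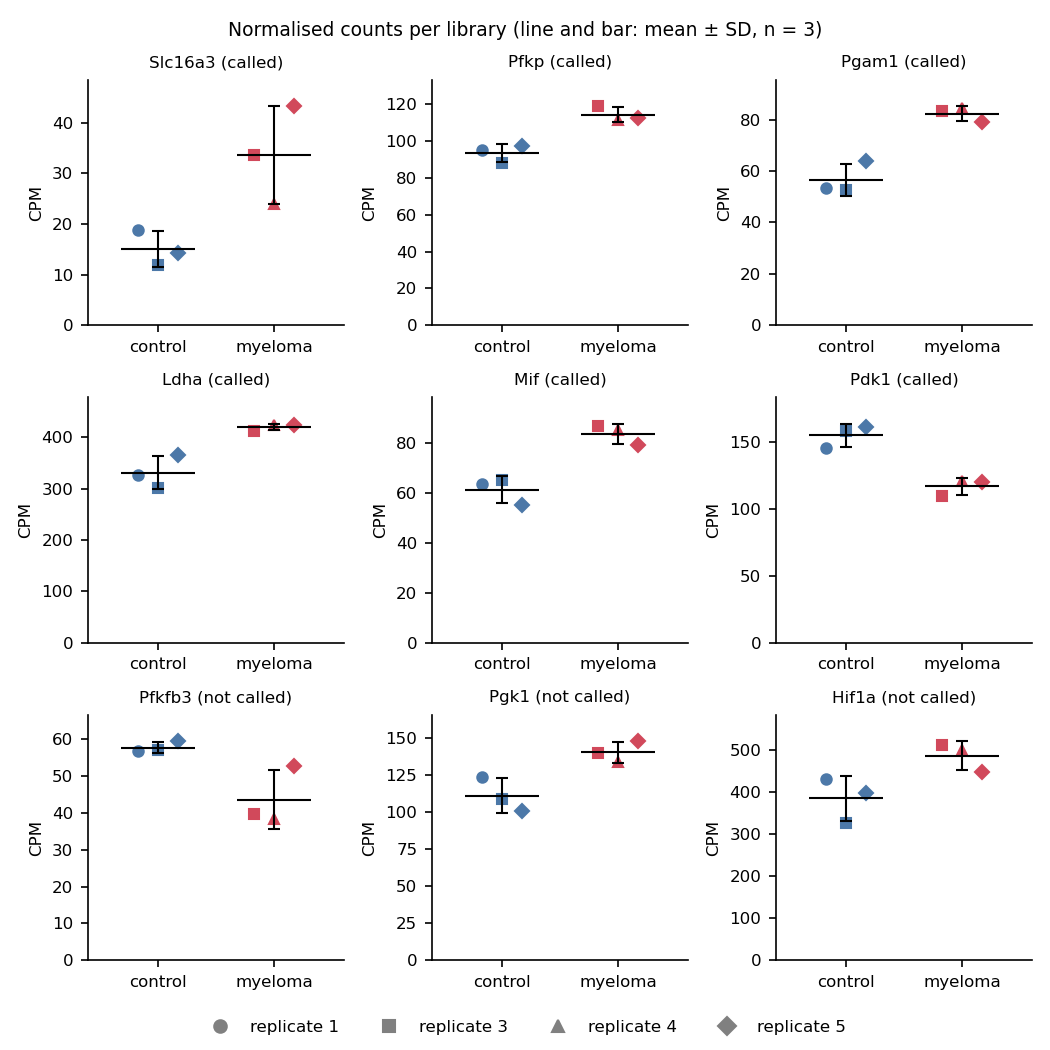
CPM per library for the 6 called genes and for 3 genes that were not called but whose groups did not overlap (symbols mark the replicate number; the line and bar are mean ± SD, n = 3). In all 9 panels the 3 myeloma libraries lie wholly above or wholly below the 3 control libraries.

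Of the 17 glycolytic genes, 3 passed the test, all as rises (17.6% called, against 11.0% of all genes tested). A log2 fold change above 0 was found for 13 of the 17, against 52.0% of all genes tested, and the median was 0.22. The 4 below 0 were Pfkm, Pfkfb3, Eno1 and Ldhb. At the first step, Hk1, the main hexokinase here, ran from 141.5 to 174.8 CPM in the myeloma libraries and from 145.6 to 146.5 in the controls (log2 0.16, adjusted p = 0.319). Hk2, the hexokinase known to be induced by HIF1A, was scarce at 4.32, 5.26 and 4.47 CPM against 3.67, 3.69 and 2.98. Its groups did not overlap, but the difference was within error (log2 0.44, SE 0.32, adjusted p = 0.415). Gpi1, the isomerase of the second step, was nearly level between groups (log2 0.05, SE 0.09, adjusted p = 0.774) and below 0 by library size alone (log2 -0.03) and without myeloma replicate 5 (log2 -0.01).

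Phosphofructokinase, the committed step of glycolysis, is built from the products of Pfkl, Pfkm and Pfkp. The platelet-type gene Pfkp (ENSMUSG00000021196.13, chr13:6579768-6648777) stood at 118.6, 111.2 and 112.5 CPM in the myeloma libraries and at 95.2, 87.9 and 97.0 CPM in the controls. The lowest myeloma value was above the highest control value. The means were 114.1 ± 3.96 and 93.4 ± 4.83 CPM (SD, n = 3 each), a 1.22-fold rise (log2 0.29, SE 0.08, adjusted p = 0.0497). This call was the least stable of the 6: it held in 2 of 19 alternatives and was lost when any 1 library was left out, with adjusted p between 0.0757 (myeloma replicate 5 left out) and 0.195 (control replicate 3 left out).

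Pfkl (log2 0.12, adjusted p = 0.446) and Pfkm (log2 -0.05, adjusted p = 0.902) did not pass the test, and Pfkm changed sign without myeloma replicate 3 (log2 0.04) or control replicate 5 (log2 0.08). Pfkfb3 makes the metabolite that activates phosphofructokinase. It was lower in every myeloma library, at 39.5, 38.3 and 52.7 CPM against 56.6, 57.0 and 59.3 CPM, but was not called (log2 -0.40, SE 0.13, adjusted p = 0.0759). Without myeloma replicate 5, the highest of the 3, its adjusted p was 0.0105. It was also called by library size alone (0.0351), with no filter on low counts (0.00877) and on the TPM scale (0.0313).

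In the later steps of the pathway, from the aldolase Aldoa to the pyruvate kinase Pkm, 8 genes were measured: 7 had a log2 fold change above 0 (median 0.32), against 52.0% of all genes, and 1 of the 8 was called (12.5%, against 11.0% of all genes). That gene was Pgam1 (ENSMUSG00000011752.6, chr19:41911923-41918660), the phosphoglycerate mutase. It stood at 83.2, 84.6 and 78.9 CPM in the myeloma libraries and at 53.4, 52.6 and 63.8 CPM in the controls. The groups were well apart, with means of 82.2 ± 2.93 and 56.6 ± 6.27 CPM (SD, n = 3 each), a 1.45-fold rise (log2 0.54, SE 0.10, adjusted p = 0.0116). Leaving out myeloma replicate 4 gave an adjusted p of 0.0522 and leaving out control replicate 3 gave 0.0635, and it was 0.107 with the replicate number as a block.

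Aldoa, Tpi1, Gapdh and Pgk1 had log2 fold changes above 0 without a call. Pgk1, the first ATP-yielding enzyme of the pathway, came closest, at 140.0, 134.0 and 148.1 CPM against 124.2, 109.3 and 100.8 CPM (log2 0.34, SE 0.10, adjusted p = 0.0563). It was called without control replicate 1 (0.0358), with no filter on low counts (0.0318) and by DESeq2 (0.04). Gapdh stood at 447.0, 464.7 and 510.4 CPM against 409.1, 398.6 and 415.7 CPM, apart in all libraries by a small margin (log2 0.22, SE 0.08, adjusted p = 0.131). Aldoa (log2 0.31, SE 0.10, adjusted p = 0.078) and the triosephosphate isomerase Tpi1 (log2 0.36, SE 0.14, adjusted p = 0.143) were apart too, save that Tpi1's lowest myeloma library, 62.3 CPM, lay just under control replicate 1 at 62.4. Aldoc, the scarce second aldolase, stood at 7.03, 9.43 and 6.88 CPM against 5.54, 4.72 and 6.39 CPM (log2 0.48, SE 0.27, adjusted p = 0.287). DESeq2 called Aldoa (adjusted p = 0.0365), and edgeR with no filter on low counts called Tpi1 (adjusted p = 0.0351). The last enzymes of the chain did not differ beyond their spread: Eno1 had a log2 fold change of -0.11 (adjusted p = 0.516) and Pkm of 0.14 (adjusted p = 0.474). Counts of Gapdh, Pgk1, Eno1 and Pgam1 are uncertain by a margin, because each has near-identical pseudogene copies. The copies of Gapdh held 7.10 to 9.73% of the summed count and those of Pgk1 1.81 to 5.55%, and summing copies with their gene changed no call among the 31.

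Ldha (ENSMUSG00000063229.14, chr7:46841475-46855627) codes for the lactate dehydrogenase subunit that favours lactate production. It stood at 412.0, 423.4 and 423.0 CPM in the myeloma libraries and at 325.9, 301.7 and 365.7 CPM in the controls. The myeloma libraries lay close together and above all controls, with means of 419.5 ± 6.47 and 331.1 ± 32.3 CPM (SD, n = 3 each), a 1.27-fold rise (log2 0.34, SE 0.09, adjusted p = 0.0452). The call held in 9 of 19 alternatives. It was lost without myeloma replicate 3 (0.113), 4 (0.129) or 5 (0.0734) and without control replicate 1 (0.11) or 3 (0.18), and with RLE factors (0.0508). Ldhb, whose subunit favours the return of lactate to pyruvate, was 32.3, 37.7 and 27.7 CPM against 42.9, 34.5 and 39.4 CPM (log2 -0.26, SE 0.14, adjusted p = 0.262).

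At the entry of pyruvate into mitochondria, Pdk1 (ENSMUSG00000006494.11, chr2:71873224-71903858) was the 1 member called lower. It stood at 109.5, 120.5 and 120.3 CPM in the myeloma libraries and at 145.1, 158.4 and 161.1 CPM in the controls. All myeloma libraries lay below all controls, with means of 116.8 ± 6.26 and 154.8 ± 8.58 CPM (SD, n = 3 each), so the gene was 1.33-fold lower (log2 -0.41, SE 0.08, adjusted p = 0.0181). Leaving out myeloma replicate 3 or 4 gave adjusted p of 0.0658 and 0.0561, and leaving out control replicate 3 or 5 gave 0.0798 and 0.0556. The subunits of pyruvate dehydrogenase itself, Pdha1 (log2 -0.10, adjusted p = 0.488) and Pdhb (log2 -0.04, adjusted p = 0.861), did not pass the test.

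The 7 hypoxia regulators and targets gave 1 call (14.3%, against 11.0% of all genes tested), and 5 of the 7 had a log2 fold change above 0 (median 0.25), as had 52.0% of all genes. The gene that rose was Mif (ENSMUSG00000033307.6, chr10:75859353-75860240), which codes for macrophage migration inhibitory factor, a secreted cytokine. It stood at 86.9, 85.2 and 79.3 CPM in the myeloma libraries and at 63.8, 65.2 and 55.3 CPM in the controls. Again the groups were apart, with means of 83.8 ± 3.96 and 61.4 ± 5.38 CPM (SD, n = 3 each), a 1.37-fold rise (log2 0.45, SE 0.09, adjusted p = 0.0191). Its adjusted p was 0.0713 or 0.0700 with myeloma replicate 3 or 4 left out, and 0.0563 or 0.0686 with control replicate 3 or 5 left out.

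Hif1a (ENSMUSG00000021109.13, chr12:73901375-73947530), the oxygen-regulated subunit of the factor, stood at 511.6, 501.5 and 448.4 CPM in the myeloma libraries and at 432.2, 327.4 and 397.1 CPM in the controls. The groups did not overlap, but the gene was not called (log2 0.34, SE 0.11, adjusted p = 0.0932). DESeq2 gave an adjusted p of 0.0305, and with no filter on low counts edgeR gave 0.0467. On the TPM scale its log2 fold change was -0.03. The HIF1A protein is controlled by its breakdown, which these libraries do not measure.

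The other members of this set showed no difference beyond their spread. The prolyl hydroxylases that mark HIF1A for breakdown were Egln1 (log2 -0.07, SE 0.10, adjusted p = 0.722) and Egln3 (log2 0.25, SE 0.25, adjusted p = 0.551). Egln3, itself a hypoxia target, varied most within the myeloma group, at 25.5, 12.2 and 21.7 CPM against 17.2, 18.0 and 14.7 in the controls. Bnip3, a mitophagy gene, had a log2 fold change of 0.24 (adjusted p = 0.642), and P4ha1, a collagen hydroxylase, of -0.12 (adjusted p = 0.467). Vegfa, the classic angiogenic hypoxia target, was low at 0.847, 1.29 and 1.52 CPM against 0.936, 0.945 and 0.508 CPM (log2 0.61, SE 0.56, adjusted p = 0.525). Vegfa was called in none of 18 alternatives, with log2 fold changes from 0.36 without control replicate 5 to 1.97 with the effective-length offset, and its lowest adjusted p was 0.0876, on the TPM scale. Its unadjusted p was 0.305.

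RefSeq lists 8 promoters for the 6 called genes. The 250 bases before the start site are shown for 5 of them, leaving out Mif and the second promoters of Ldha and Pdk1, because the core letters bound by hypoxia-inducible factors, ACGTG or GCGTG, can be looked for there. Capitals mark each match on either strand (CACGT and CACGC are the reverse strand), and sequences read 5′ to 3′ on the gene's strand, from RefSeq on GRCm38.p6.
Slc16a3 (chr11:120948817-120949066, plus strand): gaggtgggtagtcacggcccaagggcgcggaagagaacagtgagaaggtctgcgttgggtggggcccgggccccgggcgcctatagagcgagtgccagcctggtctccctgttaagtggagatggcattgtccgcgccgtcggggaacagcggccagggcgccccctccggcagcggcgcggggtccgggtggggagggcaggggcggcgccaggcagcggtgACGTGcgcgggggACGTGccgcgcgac
Pgam1 (chr19:41911621-41911870, plus strand): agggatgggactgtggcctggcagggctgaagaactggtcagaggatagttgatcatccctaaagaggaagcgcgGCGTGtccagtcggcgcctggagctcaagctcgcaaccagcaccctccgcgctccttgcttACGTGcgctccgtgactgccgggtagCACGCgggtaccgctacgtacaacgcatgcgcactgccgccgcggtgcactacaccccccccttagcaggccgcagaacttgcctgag
Ldha (chr7:46845554-46845803, plus strand): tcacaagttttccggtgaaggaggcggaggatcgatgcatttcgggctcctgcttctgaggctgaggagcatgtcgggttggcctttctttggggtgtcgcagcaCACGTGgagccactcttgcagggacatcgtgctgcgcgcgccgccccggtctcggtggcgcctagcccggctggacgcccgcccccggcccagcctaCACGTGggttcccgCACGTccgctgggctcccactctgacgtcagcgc
Pfkp (chr13:6648772-6649021, minus strand): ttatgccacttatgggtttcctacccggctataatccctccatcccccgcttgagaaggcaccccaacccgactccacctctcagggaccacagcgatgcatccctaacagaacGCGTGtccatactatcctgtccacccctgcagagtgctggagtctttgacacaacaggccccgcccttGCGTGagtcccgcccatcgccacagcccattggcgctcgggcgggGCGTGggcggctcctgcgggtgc
Pdk1 (chr2:71872974-71873223, plus strand): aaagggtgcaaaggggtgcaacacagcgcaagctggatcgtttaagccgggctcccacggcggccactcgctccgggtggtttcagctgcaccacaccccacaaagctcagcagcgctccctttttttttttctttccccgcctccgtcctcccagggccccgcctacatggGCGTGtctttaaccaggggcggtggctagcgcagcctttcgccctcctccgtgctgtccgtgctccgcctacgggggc

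Slc16a3 held 2 matches of the ACGTG type, the nearer beginning 14 bases before the start. The Ldha promoter shown held 5 matches, 4 of which form 2 copies of the palindrome CACGTG, the E-box that MYC and other factors also bind, so one match there overlaps the other. Pgam1 held 3 matches, 1 of them ACGTG, and Pfkp held 3 of the GCGTG type. The Pdk1 promoter shown, of the gene that fell, held 1 of the GCGTG type. Of the 3 not shown, the second Ldha promoter (chr7:46846832-46847081) held 1 match of the GCGTG type, and the second Pdk1 promoter (chr2:71874654-71874903) and that of Mif held none.

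A match of 5 letters is common. Over 32851 promoters of the same length 38.6% held at least 1 of the 2 cores, 16.6% held ACGTG, 28.2% GCGTG and 6.02% the palindrome CACGTG. Of the 31 genes, 30 had entries (Slc2a3 did not), and 27 of the 30 held a core in at least 1 of their promoters, against 41.5% of all genes in the table. For ACGTG it was 18 of the 30 against 18.5%. These genes were listed as glycolytic or hypoxia-regulated, so the motif share describes the list and not the change in myeloma. No binding was measured here.

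Levels per transcript length (TPM, which RSEM scales by effective length) ranked the genes within the control group. Gapdh was highest at 614.5 ± 35.0 TPM (SD, n = 3), followed by Ldha at 375.5 ± 58.3, Pkm at 359.9 ± 48.5 and Eno1 at 359.1 ± 56.6 TPM. The last 3, together with Gpi1 at 319.0 ± 38.8 and Aldoa at 305.1 ± 34.1, do not differ from their neighbours in this order beyond their spread. Mif (265.9 ± 14.6), Hif1a (150.2 ± 24.6) and Pgk1 (105.2 ± 12.8) came next. Among the enzymes of the main chain, the level was lower, at 66.0 ± 10.4 TPM for Tpi1, 59.3 ± 3.48 for Hk1, 54.2 ± 5.98 for Pfkp and 53.4 ± 8.43 for Pgam1, so the enzyme with the smallest adjusted p among the 31 was also one of the least abundant of its chain. Hk2 was at 1.05 ± 0.052 TPM. Vegfa was lowest at 0.617 TPM, but its effective length ran from 480.5 to 2768 bases between libraries, which makes its TPM unsure.

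**Figure D3:**
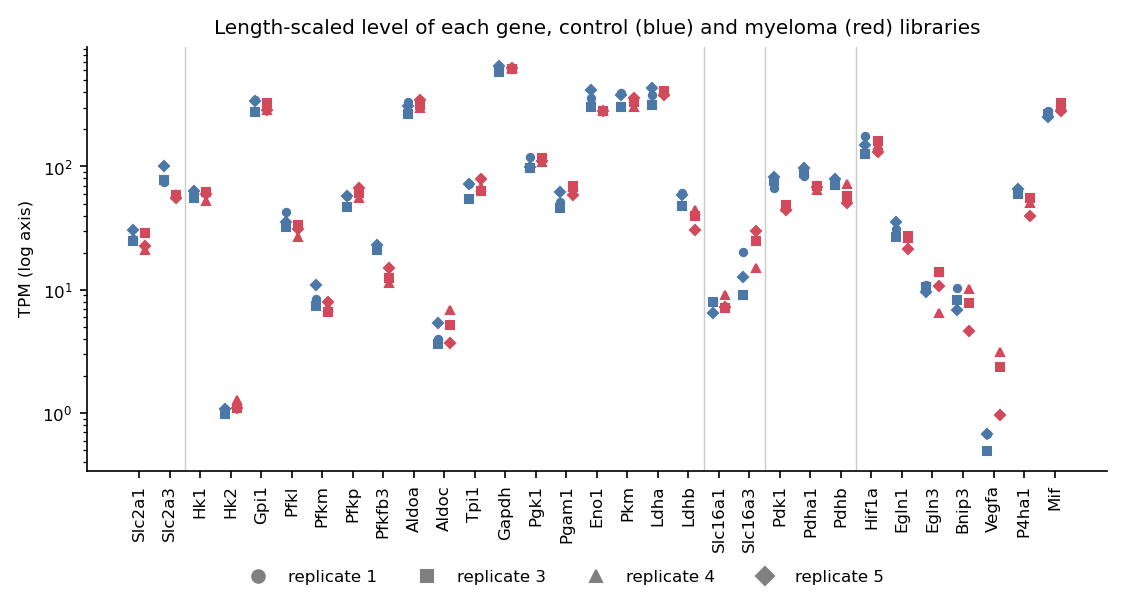
TPM of each of the 31 genes in every library on a log axis (control blue, myeloma red, marker shape for replicate number), ordered along the pathway with grey lines between glucose import, glycolysis, lactate transport, pyruvate entry and hypoxia genes. Control means run from Gapdh at 614.5 TPM to Vegfa at 0.617 TPM.

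Where 2 or 3 genes code for the same step, their balance within a library does not depend on how libraries are scaled to each other. Of 10 such shares of summed TPM, 3 did not overlap between groups, and 2 of these 3, Pfkp and Pfkl, are parts of the same sum. By CPM, a different measure, 33.3% of all genes tested did not overlap. One pair among the shares, Pdha1 and Pdhb, codes for subunits of the same enzyme and not for isoenzymes. The Pfkp share of phosphofructokinase transcripts was 60.3, 62.0 and 63.4% in the myeloma libraries and 52.6, 54.5 and 55.6% in the controls. The means were 61.9 ± 1.55% and 54.3 ± 1.51% (SD, n = 3 each), 7.62 percentage points higher in the myeloma group. The Pfkl share was 33.2, 30.0 and 29.2% against 39.6, 37.0 and 33.9%, 6.04 points lower in the mean (difference -6.04). Each of these had an exact two-sided permutation p of 0.1, the smallest that 3 against 3 can give, and 0.333 after adjustment over the 10 shares.

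The size of the phosphofructokinase shift depended on transcript length. Taken from expected counts in place of TPM, the Pfkp share was 3.40 points higher and the Pfkl difference was -2.10 points, still without overlap. RSEM's mean effective length of Pfkp was 2424 bases in the myeloma libraries and 2648 in the controls, and that of Pfkl 3289 and 3000 bases. The part of isoform choice or RNA fragmentation in these lengths was not tested.

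Lactate dehydrogenase held less Ldhb in every myeloma library. The Ldhb share was 8.83, 9.93 and 7.47% in the myeloma libraries and 13.8, 13.1 and 12.0% in the controls, with means of 8.74 ± 1.23% and 13.0 ± 0.893% (SD, n = 3 each). The difference was -4.24 points (exact permutation p = 0.1, adjusted 0.333) and -3.34 points from expected counts. It ran from -4.84 points without myeloma replicate 4 to -3.60 points without myeloma replicate 5. The other 7 shares overlapped between groups. Slc2a3 made up 70.6 ± 3.77% of the 2 glucose importers in the myeloma libraries and 75.6 ± 1.29% in the controls, and Hk2 made up 1.98 ± 0.361% and 1.74 ± 0.0444% of the 2 hexokinases (SD, n = 3; exact permutation p = 0.2 for each). Slc16a3 made up 73.6 ± 9.91% and 63.7 ± 9.54% of the 2 lactate transporters (SD, n = 3; exact permutation p = 0.3). With 1 library left out, the Slc16a3 difference ran from 4.63 points (without control replicate 3) to 15.5 points (without myeloma replicate 4). For Slc2a3 it ran from -6.88 to -3.12 points and for Hk2 from 0.0332 to 0.356 points, the ends being myeloma replicates 4 and 3.

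**Figure D4:**
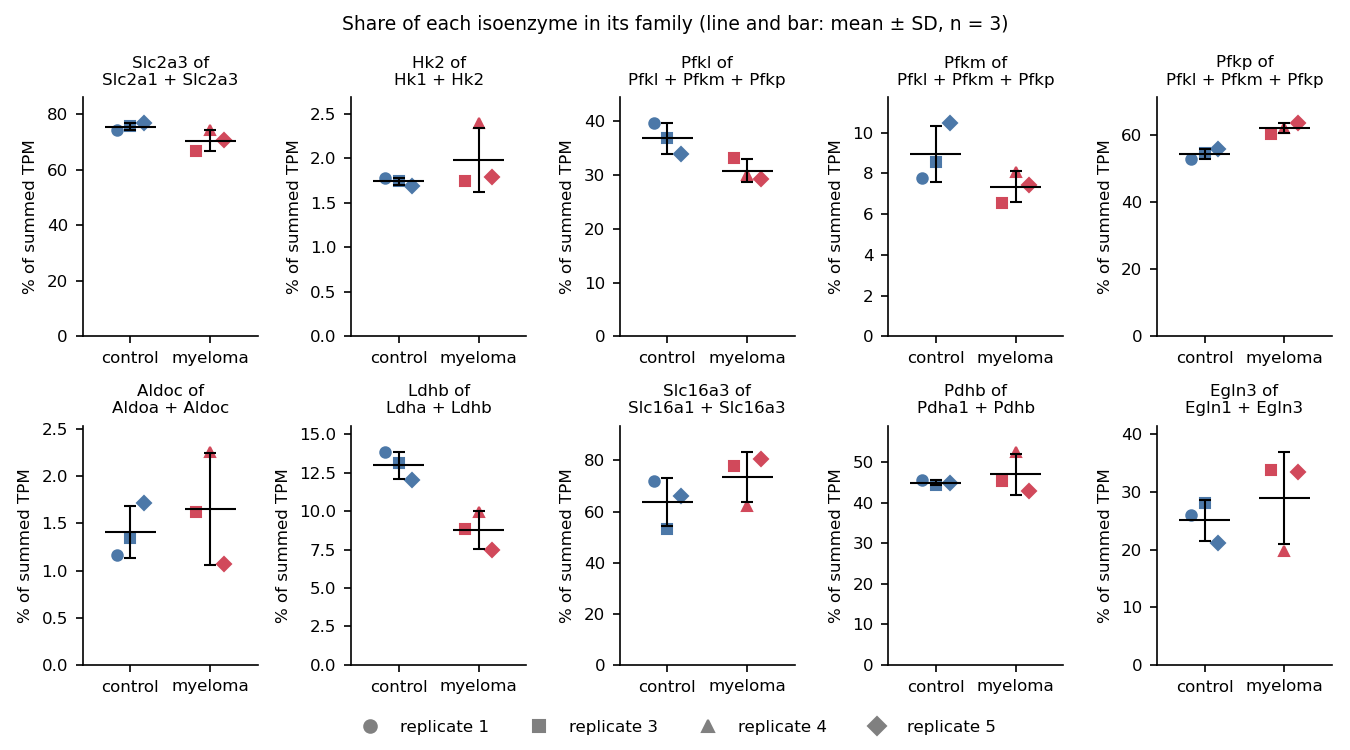
Share in percent of summed TPM that 1 gene takes of its step, per library (symbols mark the replicate number; the line and bar are mean ± SD, n = 3). The Pfkp share lies higher and the Pfkl and Ldhb shares lower in all 3 myeloma libraries than in any control library.

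A further 60 genes of the same pathways were listed, of which 49 were tested. Of these 3 rose and 3 fell, 12.2% against 11.0% of all genes tested, and the median log2 fold change was 0.08. Bpgm, which turns a glycolytic intermediate into the red-cell regulator of haemoglobin, fell from 74.8, 103.5 and 76.6 CPM in the controls to 52.4, 52.2 and 51.4 CPM (log2 -0.71, SE 0.13, adjusted p = 0.0113). Its adjusted p was 0.0519 without myeloma replicate 4. The erythroid sums given above were lower in the myeloma libraries as well, with 5 of the 7 measured erythroid markers called lower, and their part in the Bpgm result was not tested.

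Among 19 tested genes of oxygen sensing and hypoxia response beyond the 31, 2 passed the test, both as falls (10.5% called, against 11.0% of all genes tested), with a median log2 fold change of -0.01. Kdm3a, a histone demethylase induced by hypoxia, stood at 104.4, 110.4 and 92.0 CPM against 141.8, 132.0 and 144.4 CPM, with no overlap (log2 -0.45, SE 0.09, adjusted p = 0.0182). The call was lost with myeloma replicate 3 (0.0559) or control replicate 3 (0.0517) or 5 (0.061) left out. Bnip3l, a mitophagy receptor that also acts in red-cell maturation, stood at 172.9, 191.7 and 159.8 CPM against 213.6, 230.5 and 217.7 CPM (log2 -0.34, SE 0.09, adjusted p = 0.0452). The call was lost when any 1 library was left out (0.0569 without myeloma replicate 4 to 0.162 without control replicate 3). With the effective-length offset the adjusted p was 0.703, the mean effective length being 1794 bases in the myeloma libraries and 1997 in the controls, and the part of the lower erythroid sums was not tested.

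The higher calls fell in the pentose phosphate branch, pyruvate dehydrogenase control and the mutase step. Taldo1, the transaldolase of the pentose phosphate pathway, stood at 136.5, 125.5 and 153.1 CPM against 99.5, 98.1 and 111.2 CPM (log2 0.43, SE 0.10, adjusted p = 0.0273), and all 4 pentose phosphate genes had a log2 fold change above 0 (median 0.25). Its call was lost without myeloma replicate 3 (0.077) or 5 (0.0583) and without control replicate 1 (0.0743) or 3 (0.117). Pdk3, a second pyruvate dehydrogenase kinase, moved opposite to Pdk1, at 23.6, 31.1 and 30.4 CPM against 21.6, 17.8 and 16.7 CPM (log2 0.60, SE 0.16, adjusted p = 0.0433). It was not called without myeloma replicate 4 (0.141) or 5 (0.0859) or control replicate 3 (0.146) or 5 (0.143). Pgam2, the muscle form of the mutase and named here after its values were seen because its groups overlap, stood at 2.29, 11.4 and 21.0 CPM against 0.780, 2.32 and 2.18 CPM (log2 2.71, SE 0.73, adjusted p = 0.0453). It was lost without myeloma replicate 4 (0.116) or 5 (0.105) and without any 1 control (0.109 to 0.119).

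Markers of other cells also differed between libraries. The 7 plasma cell markers had sums of 230.0, 339.5 and 476.2 CPM in the myeloma libraries against 169.5, 142.1 and 106.7 CPM, and 2 of the 6 tested were called higher. The joining chain gene Jchain stood at 37.7, 118.5 and 199.3 CPM against 3.67, 0.601 and 3.70 CPM. The syndecan gene Sdc1 stood at 1.10, 9.23 and 25.2 CPM against 1.25, 0.601 and 1.45, and Mzb1 at 0.762, 16.5 and 31.7 CPM against 0.546, 2.66 and 3.56, so in myeloma replicate 3 both were within the range of the controls. In that library Prdm1 at 123.6 and Xbp1 at 65.9 CPM made up most of the sum. The same held in the controls, at 90.83, 71.55 and 44.5 CPM for Prdm1 and 72.1, 66.05 and 53.29 CPM for Xbp1. Whether RNA of these 2 genes came from plasma cells was not tested. Neutrophil markers summed to 133.3, 457.2 and 406.1 CPM against 178.1, 62.5 and 157.0 CPM. B cell markers summed to 31.8, 46.7 and 77.0 CPM against 49.2, 245.6 and 304.0 CPM, with 3 of 8 called lower. Proliferation markers, which can move with glycolytic genes, overlapped between groups at 274.5, 311.0 and 567.3 CPM against 339.4, 465.7 and 457.8 CPM, and none of the 10 was called by edgeR or DESeq2 or had an unadjusted p under 0.05. The part of these cells in Pgam2 and in the calls among the 31 genes was not tested.

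**Figure D5:**
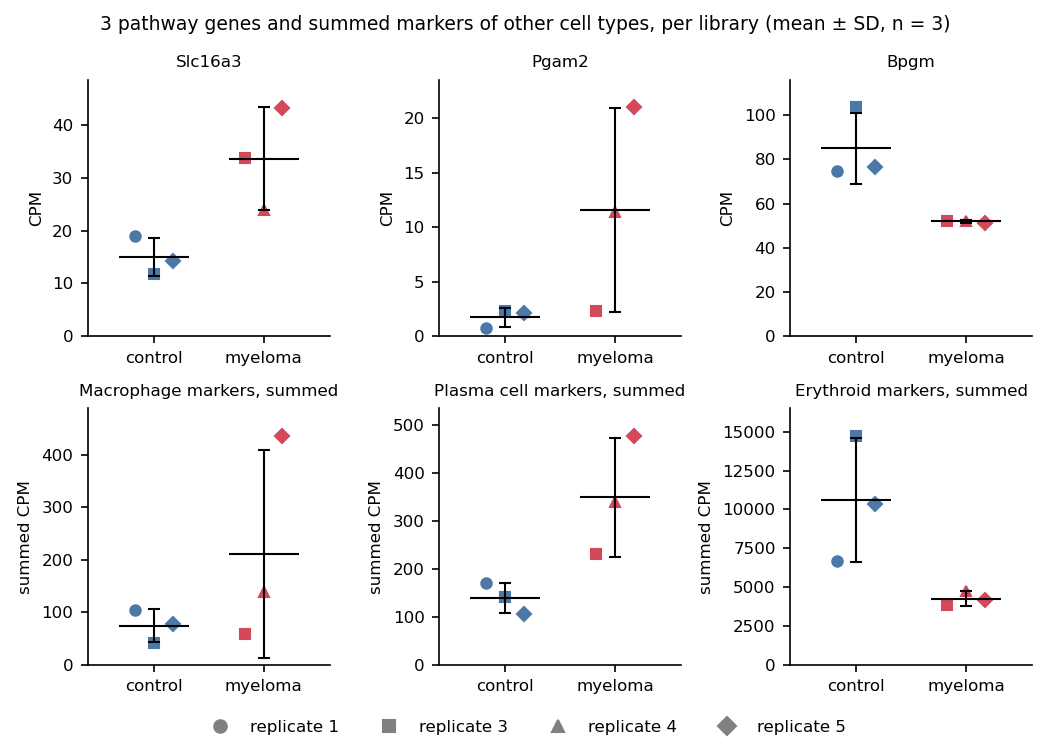
Slc16a3, Pgam2 and Bpgm (CPM, upper row) and summed CPM of macrophage, plasma cell and erythroid markers (lower row) per library (symbols mark the replicate number; the line and bar are mean ± SD, n = 3). Plasma cell sums are higher and erythroid sums lower in all 3 myeloma libraries than in any control library, and macrophage sums are highest in myeloma replicate 5 at 435.8 CPM. Prdm1 and Xbp1 make up most of the plasma cell sums of the controls.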

How the data were processed

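RNA of sorted CD4+ FOXP3-GFP+ cells was extracted with the RNeasy Micro kit and made into libraries with NEBNext Ultra, which does not mark strand, per the labels' protocols. Reads of overlapping genes on opposite strands are therefore mixed. STAR, RSEM, Picard and DESeq2 and the build mm10 are named in the submitters' processing notes, with no version given in the sources used here. The authors' expected counts are RSEM estimates of reads per gene, not normalized, per the file headers. The deposited TPM are scaled by the authors for effective length and library total, and the deposited FPKM were not used. Replicates were not pooled.

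Expected counts were rounded, filtered with edgeR's filterByExpr (minimum count 10, total 15), scaled by TMM and tested in edgeR 4.0.16 (R 4.3.3) with the quasi-likelihood test, over all 13235 genes with Benjamini-Hochberg adjustment and a threshold of 0.05. "Called" means past that threshold. Adjusted p-values are from this test except where another is given. CPM use TMM-scaled totals. Gene IDs matched reference names for 47224 of 47643 genes, and 419 kept their table name. Positions are GENCODE M21 on GRCm38. Beyond the design text, no label links a replicate number with a mouse or a day, so a p-value reflects only how these libraries spread. The members and lists were chosen with earlier results of these data known. Genes of the further list were named when called with groups that do not overlap, with Pgam2 as the stated exception. The single markers named (Foxp3, Jchain, Sdc1, Mzb1, Prdm1 and Xbp1) were not picked by that rule, and other called markers are counted but not named. Copies were found at 90% identity over at least 200 bases and 50% of the pseudogene. The alternatives were other scaling factors (RLE, upper quartile, library size alone), other filters, DESeq2 1.42.0, limma-voom (limma 3.58.1), an effective-length offset, removal of 479 immunoglobulin, haemoglobin and mitochondrial genes, a replicate block, leaving out each library, and summed copies. Summing copies found by sequence and limma on log2(TPM + 1) were added after the data were seen. The test was checked on simulated counts.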

Additional observations from a re-analysis of the deposited data

How the results depend on the processing

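The 6 called members kept the sign of their difference in all 19 alternatives. Pgam1 kept its call in 15, Slc16a3 and Pdk1 in 14, Mif in 13, Ldha in 9 and Pfkp in 2. Members called higher, 5 in the report, were 3 with RLE factors or library sizes alone, 2 with the effective-length offset, 1 with the replicate block, 0 on log2(TPM + 1), and 7 with DESeq2 or with no filter on low counts. Members called lower, 1 in the report, were 2 with library sizes alone, 3 with no filter on low counts, 0 with the replicate block and 4 on log2(TPM + 1), where the median member was at -0.048. Higher and lower together, 12.9% of members were called with RLE factors, against 11.1% of all genes tested. With library sizes alone it was 16.1% against 12.4%, and with the effective-length offset 9.68% against 7.54%. The replicate block gave 3.23% against 3.81%, and log2(TPM + 1) gave 12.9% against 9.77%. With no filter it was 32.3% against 9.18% of 26583 genes. DESeq2 gave 25.8% against 3.94% of all 47643 genes, those with few counts included. Leaving out 1 library at a time gave 0 to 4 members higher and 0 to 2 lower, 331 to 836 of all genes higher and 123 to 546 lower, and 0 to 2 further genes higher and 1 to 3 lower. Fits with 1 library left out have fewer samples. Under the replicate block, control replicate 1 and myeloma replicate 4 share their number with no other library, so they add nothing to the estimated group difference. The cause of the other shifts was not tested.

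Over all genes the counts were 1004 lower with library sizes alone and 408 lower with the effective-length offset. With no filter they were 1337 higher and 1102 lower, but of 26583 genes tested (9.18% called), against 11.0% of 13235 in the main fit. They were 362 higher and 142 lower with the replicate block, and 275 higher and 1018 lower on log2(TPM + 1). Of the further genes, 5 were lower with library sizes alone, 6 higher and 6 lower with no filter, 1 higher with limma-voom or the effective-length offset, 0 higher and 1 lower with the replicate block, and 0 higher and 5 lower on log2(TPM + 1). At an unadjusted p under 0.05 the block left 11 members higher and 3 lower, with 3 further genes higher.

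The replicate numbers were not treated as a pairing, as only 3 and 5 occur in both groups. Deviations of same-numbered libraries correlated at 0.03 (replicates 3) and 0.097 (replicates 5), the latter the highest value between the groups. Libraries with different numbers gave -0.081 to 0.048. With 3 libraries a group these values cannot settle whether the numbers mark pairs. Under the block the adjusted p was 0.107 for Pgam1, 0.163 for Ldha, 0.0761 for Pdk1, 0.0823 for Mif and 0.184 for Pfkp, and Slc16a3 stayed called.

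Signs turned for genes near 0. Slc2a1 was 0.078 with the effective-length offset. Gpi1 was -0.027 with library sizes alone and -0.079 on log2(TPM + 1), and -0.0075 to 0.093 with 1 library left out. Pfkl was -0.030 with the offset and -0.26 on log2(TPM + 1). With 1 library left out, Pfkm ran from -0.16 to 0.078 and Pdhb from -0.18 to 0.023. Bnip3 was -0.0033 with the block and -0.18 on log2(TPM + 1), where Hk1 was -0.030, Pkm -0.11, Hif1a -0.029 and Egln3 -0.048. With 1 library left out, the Aldoc share differed by -0.0632 to 0.532 points and the Pdhb share by -0.804 to 4.01 points.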
